A study of Canis lupus familiaris with 8 samples.

Results

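The cells described here are CD8 T cells with transcripts of granzyme B (GZMB) and none of FCER1G, called effector cells below. Their source was peripheral blood of 4 healthy, routinely vaccinated Beagles, with no treatment given in the labels, from which T cells with the TCRαβ receptor were sorted and cryopreserved before droplet-based 5' single-cell RNA sequencing with V(D)J sequencing. They were selected on measured transcript counts, and a cell belonged to them with at least 1 UMI (unique molecular identifier, a counted transcript molecule) of CD8A, 0 UMIs of CD4, at least 1 UMI of GZMB, 0 UMIs of FCER1G and no receptor row that joined TRAV9-11 to TRAJ28. This held for 2716 of 31909 kept cells and for 2716 of 6427 CD8A+ CD4- cells. The remaining 3711 CD8A+ CD4- cells, the other cells below, comprised 1989 without GZMB and FCER1G, 621 with both genes, 426 with FCER1G alone and 675 with the TRAV9-11 and TRAJ28 row. The only female was dog 1, aged 5 years, and the males were aged 7 (dogs 2 and 3) and 9 years (dog 4). The dogs gave 7096, 8454, 8109 and 8250 kept cells from libraries of 26904346, 35661623, 32637367 and 32773374 UMIs. The dog was the replicate, so n = 4 throughout, and age and sex cannot be told apart from the single animal.

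CD8 effector T cells kill infected or altered cells by releasing granules that hold perforin, which opens the target membrane, and granzymes, proteases that start cell death inside it. They also secrete chemokines such as CCL4 and carry receptors first known from natural killer (NK) cells, which tune the response set off by the T cell receptor. Naive and central memory cells instead express CCR7 and the transcription factors TCF7 and LEF1, which mark cells that recirculate through lymph nodes and can renew themselves. FCER1G is the signalling chain that several Fc and NK receptors use.

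Before the results, the overlap between libraries has to be stated. The dogs shared 553 cell barcodes over the 6 pairs of dogs, 5 of them between effector cells. No clone (an identical pair of TRA and TRB junction sequences) was found in both dogs of 5 of the pairs, while dogs 1 and 4 had 40 clones in common. These held 44 of the 3956 cells of dog 1 with both chains, 36 of the clones with 1 cell each, and 621 of the 4887 cells of dog 4. None of these cells shared a barcode. Among effector cells, 7 clones were found in both dogs, with 7 cells in dog 1 (5.88% of its 119 paired effector cells) and 72 in dog 4. All 5 comparisons across genes were repeated without the cells of dog 1 in these clones, which gave 768, 199, 559, 70 and 310 genes in the order in which the comparisons follow, against 834, 205, 562, 62 and 303 with them.

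The largest effector clone of each dog is shown by its junctions because these clones recur in the results. The junction runs from the conserved cysteine of the V segment to the conserved residue of the J segment, and capitals mark the bases that neither the V nor the J match covers.
Dog 1, 19 cells, TRA (TRAV24, TRAJ34): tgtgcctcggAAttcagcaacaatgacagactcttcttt
Dog 1, 19 cells, TRB (TRBV25, TRBJ2-6): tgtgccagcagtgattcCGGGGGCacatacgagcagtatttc
Dog 2, 48 cells, TRA (TRAV9-11, TRAJ40): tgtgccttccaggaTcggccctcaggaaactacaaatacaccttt
Dog 2, 48 cells, TRB (TRBV25, TRBJ2-5): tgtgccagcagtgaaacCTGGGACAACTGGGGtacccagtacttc
Dog 3, 118 cells, TRA (TRAV9-6, TRAJ27): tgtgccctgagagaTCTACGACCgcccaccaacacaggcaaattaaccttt
Dog 3, 118 cells, TRB (TRBV5-2, TRBJ1-2): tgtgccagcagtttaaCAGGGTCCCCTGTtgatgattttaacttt
Dog 4, 30 cells, TRA (TRAV22, TRAJ44): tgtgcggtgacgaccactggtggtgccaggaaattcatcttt
Dog 4, 30 cells, TRB (TRBV16, TRBJ2-1): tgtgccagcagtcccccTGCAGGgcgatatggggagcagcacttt
The TRA junction of dog 4 has no capitals, since the V and J matches met without a base between them. The third largest clone of dog 4 is shown as one of the 7 that also had an effector cell in dog 1.
Dog 4, 19 cells, TRA (TRAV43-1, TRAJ49): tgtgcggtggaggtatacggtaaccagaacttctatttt
Dog 4, 19 cells, TRB (TRBV26, TRBJ2-2): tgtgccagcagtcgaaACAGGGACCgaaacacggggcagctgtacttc

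Effector cells made up 26.5%, 33.3%, 50.2% and 45.0% of the CD8A+ CD4- cells of dogs 1 to 4, a mean of 38.7% ± 10.8 (SD, n = 4). The exact (Clopper-Pearson) 95% intervals, which cover counting error only, were 23.2 to 29.9%, 30.8 to 35.8%, 48.1 to 52.3% and 42.8 to 47.2%. They treat cells as independent draws, although many effector cells shared a clone, so they may be too narrow. Of all kept cells they were 2.58%, 5.62%, 14.1% and 11.1%. Each cell was also thinned at random to 2000 UMIs and classified anew, with 58, 163, 268 and 226 shallower CD8A+ CD4- cells dropped. The shares were then 25.4%, 30.0%, 47.8% and 42.5% of the 599, 1153, 1891 and 1752 cells that were CD8A+ CD4- after thinning. Before thinning they were 26.4%, 33.2%, 49.4% and 44.2% of the CD8A+ CD4- cells deep enough to be thinned. The order of the dogs was the same.

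**Figure D1:**
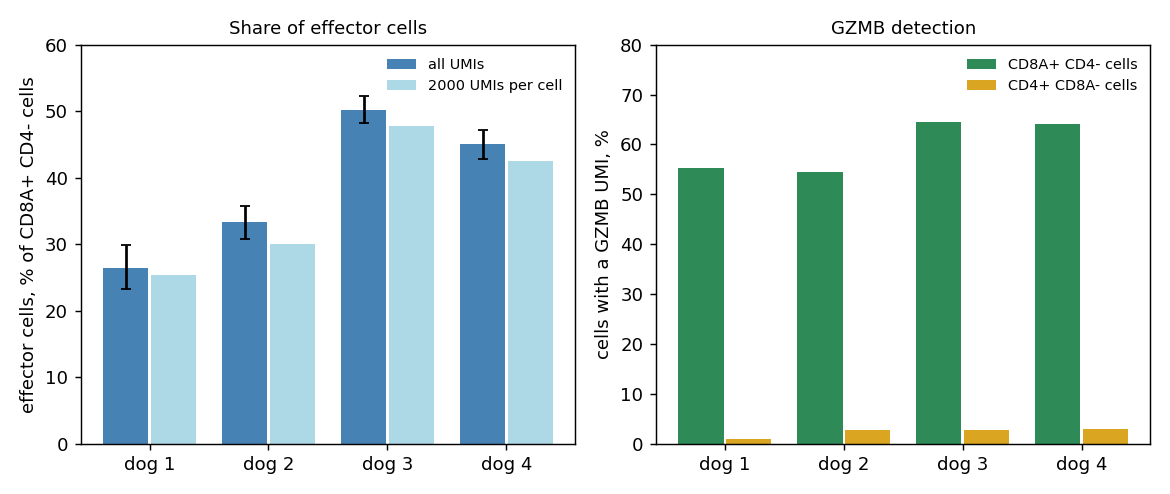
Left, effector cells as a percentage of CD8A+ CD4- cells in each dog, with all UMIs (dark bars, exact 95% intervals) and with 2000 UMIs per cell (light bars); right, the percentage of cells with a GZMB UMI in CD8A+ CD4- and in CD4+ CD8A- cells. Dogs 3 and 4 stand above dogs 1 and 2 on the left, and GZMB was found in 54.4 to 64.5% of CD8A+ CD4- cells against at most 2.96% of CD4+ CD8A- cells on the right.

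GZMB chose the cells, so its values describe them only. Its level was 2119, 1944, 2578 and 3174 CPM (UMIs of the gene per 1e6 UMIs of the group) in dogs 1 to 4, and effector cells held medians of 5, 4, 7 and 8 GZMB UMIs, with up to 100 in a single cell of dog 4. In CD4+ CD8A- cells, most of which should lack the gene, a GZMB UMI was present in 0.875%, 2.84%, 2.72% and 2.96%, at medians of 3747, 4080, 3973 and 4091.5 UMIs per cell against 3932, 3928, 3586.5 and 3655 in CD8A+ CD4- cells. The CD4+ CD8A- shares were far below the 55.3%, 54.4%, 64.5% and 64.2% of CD8A+ CD4- cells. With 1 GZMB UMI, 419 effector cells (15.4%) stood just inside the rule, and 971 (35.8%) held 10 or more.

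The other genes proposed as markers varied with the number of GZMB UMIs. From the 1989 FCER1G-negative cells just outside the rule, through effector cells with 1 GZMB UMI, to those with 10 or more, CCL4 (a chemokine) had means over dogs of 248, 729 and 1845 CPM. ITGAM (an integrin chain of leukocyte adhesion) had 14.3, 48.7 and 314 CPM, KLRB1 (a C-type lectin receptor of NK and T cells) 48.4, 163 and 507 CPM, and KLRD1 (CD94, the partner chain of NKG2 receptors) 157, 428 and 709 CPM. TCF7 went the other way with 350, 263 and 49.1 CPM, as did IL7R, the receptor chain for the survival cytokine interleukin 7, with 719, 426 and 183 CPM. LEF1 had 276 CPM outside the rule, 47.4 CPM at 1 UMI and 51.6 CPM at 10 or more, so its mean stepped down at the limit of the rule. Within the effector cells the dogs differed. From 1 UMI to 10 or more, LEF1 went from 17.4 to 75.4 CPM in dog 1 and from 41.6 to 44.0 CPM in dog 2. It went from 81.4 to 44.4 CPM in dog 3 and from 49.2 to 42.6 CPM in dog 4.

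All 5 proposed markers were detected in every dog. CD3E, a chain of the T cell receptor complex, had a UMI in 98.4%, 96.8%, 96.0% and 95.4% of effector cells. Of the proposed markers, CCL4 had 812, 1348, 1277 and 2275 CPM in effector cells against 584, 511, 344 and 775 CPM in the other cells, with no overlap between the groups. KLRB1 had 195, 204, 635 and 535 CPM against 52.1, 172, 217 and 253 CPM. ITGAM had 102, 75.6, 310 and 327 CPM against 78.3, 97.8, 72.7 and 226 CPM, and was lower than in the other cells of dog 2. KLRD1 had 457, 522, 870 and 648 CPM against 421, 449, 507 and 628 CPM. KLRB1, ITGAM and KLRD1 were highest in dogs 3 and 4 and their groups overlapped. These 4 markers were proposed with these data in view, and no test is given for them in comparisons that split cells by GZMB, although the counts of calls per list below include them.

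Transcripts of other blood cells were few in kind. Of the myeloid list, 10 of 11 genes had a symbol in the files and 7 of these were at 0 in effector cells (CSF1R, CSF3R, S100A12, CD163, MPO, SPI1 and AIF1), which leaves the lineage's defining receptors and its transcription factor SPI1 without a UMI. The summed list was 1286, 2646, 2077 and 2368 CPM, nearly all S100A8 (a calcium-binding protein abundant in neutrophils). S100A8 had a mean of 2094 CPM in effector cells and 2219 CPM in CD4+ CD8A- cells. Its mean was 1337 CPM in the other CD8A+ CD4- cells and 1088 CPM in those with GZMB and FCER1G. The B cell list summed to 9767, 8857, 10230 and 9988 CPM, again nearly all from 1 gene, CD79A, with 9707 CPM in effector cells, 9806 CPM in the other CD8A+ CD4- cells and 9726 CPM in CD4+ CD8A- cells. All 6 B cell genes had a symbol, and PAX5, the B cell lineage factor, was at 0. Of the platelet and erythroid list, 6 of 8 genes had a symbol, 4 were at 0 (PPBP, GP1BB, HBM and SLC4A1) and the sum was at most 1.79 CPM in any dog. Of the NK and γδ T cell list, 6 of 10 had a symbol, KLRF1 and NCAM1 were at 0, and the sums of 67.3, 90.2, 73.1 and 68.6 CPM came mostly from GATA3 (62.5 CPM), a transcription factor that T cells also use.

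Depth and receptor counts were compared as possible differences between the groups. Median UMIs per effector cell were 4072, 3920, 3310 and 3416 in dogs 1 to 4, with a mean of 3679.5 ± 373 (SD) against 3924.6 ± 35.5 in the other cells, a difference of -245 UMIs (two-sided exact permutation test over 4 dogs, p = 0.375). Effector cells were the deeper group in dog 1 only. The difference was -393 UMIs without dog 1 and -115 UMIs without dog 3. More than 1 TRB chain, a mark that doublets can carry, was found in 2.42% ± 2.09 of effector cells and 4.06% ± 1.51 of the other cells. No doublet caller was run. Repeating the comparisons with cells of at most 1 TRB chain gave 832, 195, 584, 44 and 329 genes in the same order as above.

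Compared with all other CD8A+ CD4- cells, effector cells had more transcripts of GZMK, PRF1, FASLG, TBX21 and ZEB2 and fewer of LEF1, TCF7 and CCR7. In the lists that hold these genes, 5 of 15 granule and death ligand genes and 5 of 12 transcription factors rose and 7 of 16 naive and memory genes fell. The sums of UMIs per dog and group entered edgeR's quasi-likelihood test, with the dog as a block and Benjamini-Hochberg adjustment. Of 9531 genes tested, 423 (4.44%) were higher and 411 (4.31%) lower at an adjusted p under 0.05, the rule used for every call below. The median log2 fold change over all genes was -0.01. The other cells were a mixture, and without their FCER1G+ cells and those with the TRAV9-11 and TRAJ28 row 1434 genes passed, against 432 without dog 3 and 497 without dog 4.

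Among granule and death ligand genes, 5 of 15 tested rose and 1 fell, with a median log2 fold change of 0.17. GZMK, a granzyme of memory-like CD8 cells, had 701, 1485, 1156 and 982 CPM in effector cells against 302, 506, 611 and 348 CPM. The groups did not overlap, and GZMK rose by 1.29 ± 0.09 (log2 fold change ± SE, adjusted p = 1.36e-05 in edgeR's quasi-likelihood test, higher in 4 of 4 dogs). PRF1, which encodes perforin, had 106, 154, 234 and 276 CPM against 89.0, 117, 120 and 172 CPM. It was highest in dogs 3 and 4 in effector cells, the groups overlapped across dogs, and it rose by 0.62 ± 0.10 (edgeR adjusted p = 0.00164, 4 of 4 dogs). FASLG, the ligand of the death receptor FAS, rose by 0.71, CST7, an inhibitor of granule proteases, by 0.54 and RAB27A, which docks granules for release, by 0.46. CTSW, a cathepsin of cytotoxic cells, fell by 0.32 on the log2 scale in this comparison but was higher by 0.38 once the FCER1G+ cells and those with the TRAV9-11 and TRAJ28 row were left out. GZMA did not pass the test, with 230, 105, 274 and 542 CPM against 187, 189, 88.5 and 263 CPM (log2 fold change 0.61, edgeR adjusted p = 0.204, higher in 3 of 4 dogs).

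Of 12 chemokine and cytokine genes, 4 rose and 2 fell, with a median of 0.30. CSF1, a macrophage growth factor, had 20.7, 9.75, 10.2 and 33.7 CPM against 3.41, 3.44, 2.56 and 3.83 CPM, which did not overlap, and rose by 2.43 ± 0.27 (edgeR adjusted p = 0.000208, 4 of 4 dogs). LTB, a lymphoid tissue cytokine, fell by 0.66 and IL2 by 1.61. CCL5 differed widely between dogs, with 7041, 3164, 1084 and 2129 CPM in effector cells and 3981, 2297, 1104 and 2241 CPM in the others. It was higher in 2 of 4 dogs and did not pass the test (log2 fold change 0.29, edgeR adjusted p = 0.141).

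NK-type receptors did not move as 1 group, with 5 of 15 tested higher, 3 lower and a median of 0.27. SLAMF7, an activating receptor of cytotoxic cells, had 111, 121, 176 and 161 CPM against 87.6, 87.7, 81.0 and 89.2 CPM, without overlap, and rose by 0.75 ± 0.11 (edgeR adjusted p = 0.0011, 4 of 4 dogs). KLRG1, a receptor of terminally differentiated cells, rose by 0.67, the costimulatory CD226 by 0.51 and HCST, the adaptor DAP10, by 0.40. KLRA1 fell by 1.26 with at most 16.8 CPM in effector cells. CD96 fell by 0.51 and CRTAM by 0.66, but without the FCER1G+ cells and those with the TRAV9-11 and TRAJ28 row among the others CD96 had a log2 fold change of 0.47 and CRTAM one of 0.021, which did not pass (edgeR adjusted p = 0.971). Of 29 integrin, adhesion and trafficking genes, 6 rose and 2 fell, with a median of 0.01. CX3CR1, the fractalkine receptor of circulating effector cells, had 27.2, 49.7, 84.8 and 70.4 CPM against 11.7, 18.4, 23.5 and 28.1 CPM. It was lowest in dog 1 in both groups, overlapped across dogs and rose by 1.52 ± 0.11 (edgeR adjusted p = 1.36e-05, 4 of 4 dogs). ADGRG1 (GPR56) rose by 1.45, S1PR5, a receptor for exit from tissue, by 0.77, and ITGAL and ITGB2, the chains of the integrin LFA-1, by 0.69 and 0.66. CCR9, a gut homing receptor, fell by 1.43.

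Of 12 effector transcription factors, 5 rose and 1 fell, with a median of 0.19. TBX21 (T-bet) had 159, 146, 281 and 281 CPM against 73.0, 95.1, 91.5 and 125 CPM, without overlap, and rose by 1.15 ± 0.12 (edgeR adjusted p = 0.000143, 4 of 4 dogs). ZEB2, which acts with T-bet in terminal effector cells, rose by 1.16, EOMES by 0.56, PRDM1 by 0.40 and KLF6 by 0.39. IKZF2 (Helios) fell by 0.82, but had a log2 fold change of 0.57 when the FCER1G+ cells and those with the TRAV9-11 and TRAJ28 row were left out of the others, which did not pass (edgeR adjusted p = 0.0568).

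Naive and memory genes were the list with most falls, 7 of 16 tested against 1 rise, with a median log2 fold change of -0.55. LEF1 had 50.5, 50.2, 64.4 and 48.3 CPM in effector cells against 262, 205, 180 and 100 CPM, and TCF7 132, 135, 97.7 and 80.8 CPM against 272, 295, 228 and 284 CPM. Neither gene overlapped between the groups, and they fell by 1.65 ± 0.15 and 1.33 ± 0.10 on the log2 scale (edgeR adjusted p = 4.21e-05 and 1.36e-05, lower in 4 of 4 dogs). CCR7 fell by 1.80, ID3, a memory factor, by 1.68, IL7R by 0.83 and SATB1 by 0.56. KLF3 was the one that rose, by 0.58.

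PDCD1 (PD-1), an inhibitory receptor, had 36.2, 71.7, 29.0 and 46.8 CPM in effector cells against 9.24, 13.5, 8.96 and 16.4 CPM. The groups did not overlap and PDCD1 rose by 1.87 ± 0.16 (edgeR adjusted p = 1.86e-05, 4 of 4 dogs), the 1 rise among 10 inhibitory receptor and exhaustion genes. CTLA4 fell by 0.83 and TIGIT by 2.07. Of 12 genes of the T cell receptor complex and its signalling, 5 rose (CD6 by 0.66, LAT by 0.67, CD2 by 0.47, FYN by 0.37 and LCK by 0.19) and CD7 fell by 0.56, with a median of 0.15. Of 15 cytokine receptors, IFNGR1 and IL12RB1 rose by 0.51 and 0.39, and IL7R and TGFBR3 fell by 0.83 and 0.64. Of 11 activation and MHC class II genes 1 rose. Of 7 proliferation genes, MKI67 and RRM2 rose by 1.30 and 1.71. Outside the lists, FABP3, a fatty acid binding protein, rose by 1.28 and DBNDD2 by 1.79, and PSEN2 fell by 2.22, CD52, a small surface glycoprotein of lymphocytes, by 2.08, RAB25 by 2.08, GSDMA by 1.95 and CTPS1, an enzyme of pyrimidine synthesis, by 1.89. PI3, a protease inhibitor, fell by 2.12, but was higher by 3.43 when the FCER1G+ cells and those with the TRAV9-11 and TRAJ28 row were left out. S100A8 rose by 0.65, with 1286, 2646, 2077 and 2367 CPM against 733, 1495, 1690 and 1429 CPM, which overlapped across dogs. Of the NK and γδ T cell list SH2D1B was lower, 1 of 3 genes tested, with too few UMIs in effector cells for a fold.

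**Figure D2:**
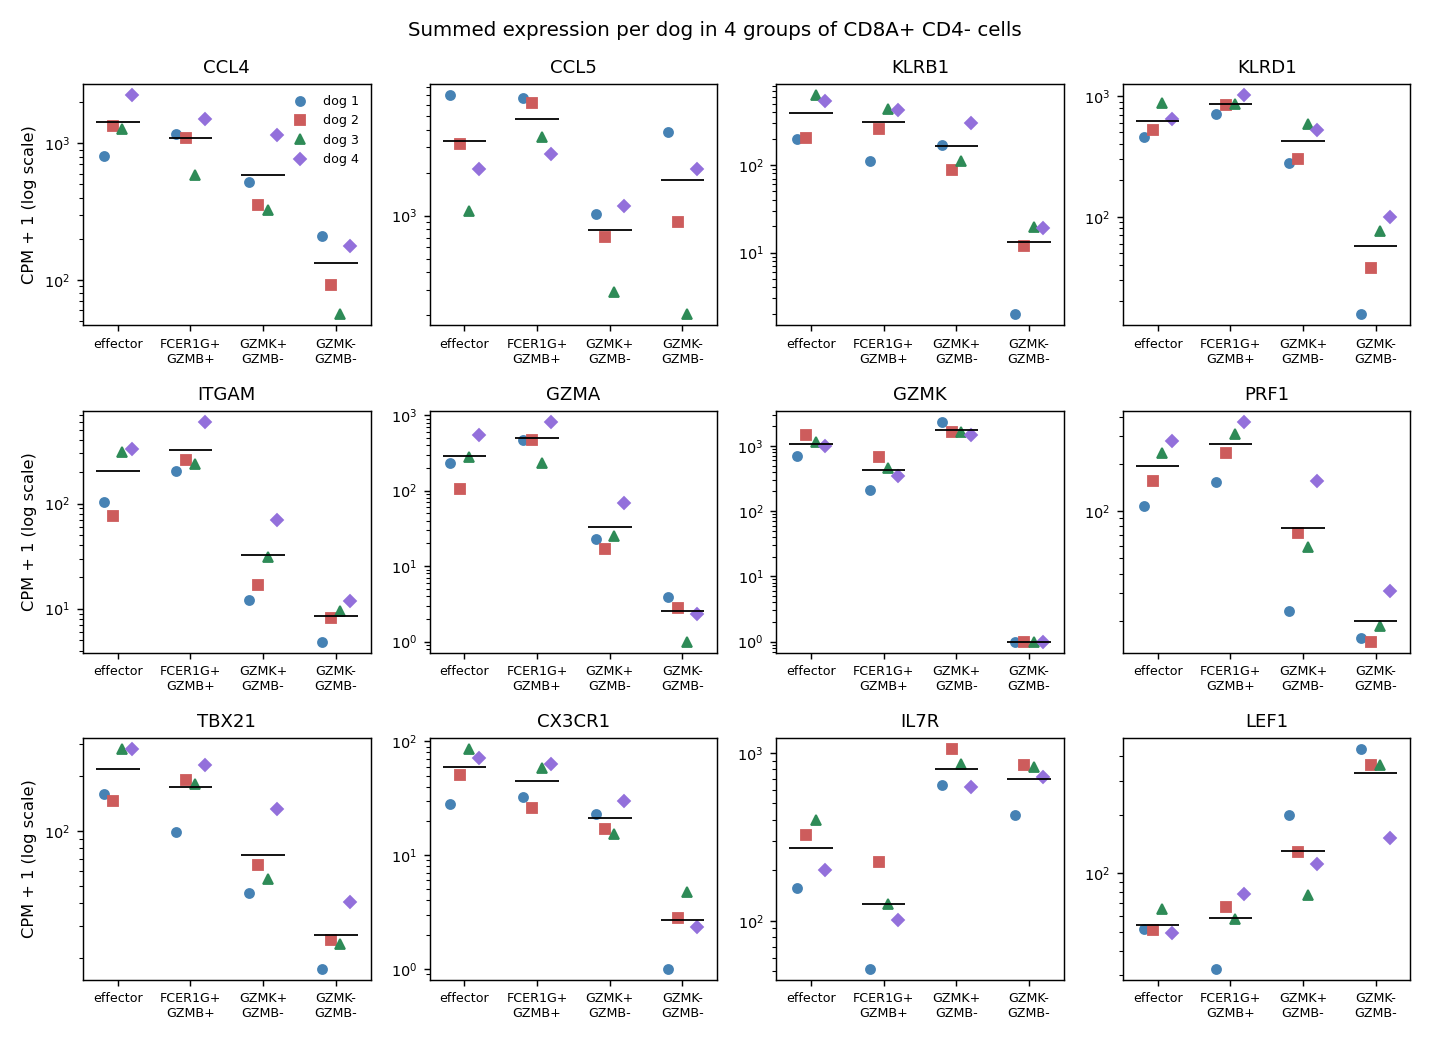
Expression of 12 genes summed per dog (CPM + 1, log axis; 1 point per dog, line at the mean) in effector cells, FCER1G+ GZMB+ cells, GZMK+ GZMB-negative cells and GZMK-negative GZMB-negative cells, all CD8A+ CD4-. IL7R was lowest on average in FCER1G+ GZMB+ cells (125 CPM) and highest in GZMK+ GZMB-negative cells (796 CPM), with effector cells at 269 CPM, and GZMK chose 2 of the groups.

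FCER1G alone separated effector cells from the 621 cells with GZMB and FCER1G (called FCER1G+ GZMB+ cells, 57, 151, 120 and 293 in dogs 1 to 4). Compared with these, effector cells had more transcripts of CD6, LAT, CD28 and GZMK and fewer of PRF1 and of the NK-type receptors CD96 and CD160. Of 7668 genes tested, 103 (1.34%) were higher and 102 (1.33%) lower in effector cells. Without dog 4, 92 genes passed, and without dog 2, 118. Both comparisons used the same effector cells, so their values are given side by side only.

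CD6, a T cell surface receptor that binds ALCAM, had 453, 581, 476 and 480 CPM in effector cells against 183, 180, 166 and 157 CPM in FCER1G+ GZMB+ cells. The groups stood well apart and CD6 was higher by 1.59 ± 0.09 (edgeR adjusted p = 3.2e-07, 4 of 4 dogs). LAT, the adaptor that links the receptor to downstream signalling, had 68.6, 71.2, 71.4 and 64.4 CPM against 7.81, 20.3, 40.6 and 17.3 CPM and was higher by 1.65 ± 0.22 (edgeR adjusted p = 0.00063, 4 of 4 dogs). LAT was nearly level across dogs in effector cells and ranged widely in the FCER1G+ GZMB+ cells. Its relative LAT2, used by B, NK and myeloid cells, was lower (log2 fold change -2.17), at 9.06, 7.31, 10.5 and 8.35 CPM against 42.9, 31.3, 33.2 and 53.6 CPM. Of the 12 genes of the T cell receptor list, 4 were higher and 1, CD7, lower (log2 fold change -0.90), with a median of 0.14 beside 0.00 over all genes. The costimulatory receptors CD28, CD27 and CD226 were higher by 1.56, 0.58 and 0.84, and CD5 by 1.11.

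GZMK was higher by 1.41 ± 0.09 in effector cells, at 211, 685, 456 and 349 CPM in FCER1G+ GZMB+ cells (edgeR adjusted p = 6.81e-07, 4 of 4 dogs, no overlap). PRF1 was the reverse, with 152, 233, 310 and 369 CPM in FCER1G+ GZMB+ cells and a log2 fold change of -0.44 ± 0.09 (edgeR adjusted p = 0.0129, lower in 4 of 4 dogs), as were CTSW (-0.77) and SERPINB9, an inhibitor of granzyme B (-0.64). Of 15 granule and death ligand genes 1 was higher and 3 lower. Of 15 NK-type receptors and adaptors, 1 was higher and 5 lower, with a median log2 fold change of -0.26. CD96 had 185, 117, 95.6 and 113 CPM against 336, 388, 260 and 330 CPM in FCER1G+ GZMB+ cells, without overlap, and a log2 fold change of -1.41 ± 0.12 (edgeR adjusted p = 2.77e-05, lower in 4 of 4 dogs). CD160 (-0.92), CRTAM (-1.46) and NCR1 (-1.56), the NK receptor NKp46 that signals through FCER1G, were lower as well. So was SH2D1B, with at most 0.488 CPM in effector cells, too few UMIs for a fold. Of the 4 proposed markers tested, 1 passed, and it was lower in effector cells. Given without single tests, KLRD1 and ITGAM had log2 fold changes of -0.45 and -0.72 and KLRB1 and CCL4 of 0.32 and 0.44. SH2D1B and NCR1 are also the 2 lower genes among the 3 tested of the NK and γδ T cell list, whose sums were 70.3, 138, 92.3 and 129 CPM in FCER1G+ GZMB+ cells against the 67.3, 90.2, 73.1 and 68.6 CPM in effector cells given above. KLRF1 and NCAM1 were at 0 in both groups, and GATA3, the most abundant gene of the list, had a log2 fold change of -0.02. CD79A, the 1 tested gene of the B cell list, was higher in effector cells by 0.30, with means of 9707 CPM against 8072 CPM. The part of these other-cell genes in the result was not tested.

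Of 15 naive and memory genes 4 were higher and none lower. IL7R had 50.7, 224, 126 and 101 CPM in FCER1G+ GZMB+ cells and was higher in effector cells by 1.12 ± 0.16 (edgeR adjusted p = 0.00106, 4 of 4 dogs), with overlap across dogs. Among 8 inhibitory receptors, PDCD1 (1.12) and CTLA4 (1.74) were higher and TIGIT (-2.94) and CD160 lower. Among cytokine receptors, IL2RB, the shared chain for interleukins 2 and 15, was lower (-0.78), as was IL12RB2 (-0.79). IKZF2 was lower (-1.42), the only call among 11 transcription factors, while S100A8 was higher by 1.03 and CSF1 by 2.07. Of 25 integrin and trafficking genes 1 passed and was lower, and of 5 proliferation genes none passed. Among the largest differences with a symbol outside the lists were UCHL1 (2.43), GALNT17 (1.72) and CHD3 (1.51) upwards. PON2 (-3.62), FGD4 (-2.88), GCSAM (-2.39) and NUGGC (-2.09) were among those downwards. TNS3 was lower too, but no fold is given. It had 5.18 CPM in effector cells of dog 1 and 0 to 0.488 CPM in those of the other dogs. Of the FCER1G+ GZMB+ cells of dog 2, 16.6% held more than 1 TRB chain.

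The 581 FCER1G-negative cells with GZMK and without GZMB (22, 154, 263 and 142 in dogs 1 to 4) differed from effector cells in more genes, 286 (3.73%) higher and 276 (3.60%) lower in effector cells of 7663 tested. With library sizes alone in place of TMM scaling, 367 were higher and 249 lower. GZMK chose this group and is left out. Dog 1 rests on 22 cells, and without it 598 genes passed, while 323 passed without dog 3. With all cells thinned to 2000 UMIs 287 passed.

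GZMA, a granzyme with a target range unlike that of GZMB, had 230, 105, 274 and 542 CPM in effector cells against 22.2, 16.0, 24.2 and 67.2 CPM. No values overlapped, and it was higher by 3.14 ± 0.14 (edgeR adjusted p = 2.6e-20, 4 of 4 dogs). PRF1, CST7 and FASLG were higher by 1.32, 1.25 and 1.06, which made 4 of 14 granule and death ligand genes. CCL5 had 1031, 706, 288 and 1162 CPM in the GZMK+ GZMB-negative cells and was higher in effector cells by 1.80 ± 0.12 (edgeR adjusted p = 1.69e-14, 4 of 4 dogs), 1 of 5 rises among 11 chemokines and cytokines. In both groups CCL5 was lowest in dog 3. CD40LG, the helper ligand for B cells and dendritic cells, had 3.88, 14.1, 6.34 and 5.67 CPM in effector cells against 33.3, 62.3, 29.2 and 36.3 CPM, without overlap, and a log2 fold change of -2.36 ± 0.25 (edgeR adjusted p = 3.84e-09, lower in 4 of 4 dogs).

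NK-type receptors rose here in 7 of 14 genes with none lower and a median of 0.67, including NCR3 (NKp30, 1.66) and CD160 (1.07). The counts per list include the 4 proposed markers tested, all called higher in a comparison that GZMB itself split. Given without a test, ITGAM, KLRB1, CCL4 and KLRD1 had log2 fold changes of 2.73, 1.47, 1.47 and 0.53. Among 12 transcription factors 4 rose, with TBX21 at 1.60 and ZEB2 at 2.04, and among 26 integrin and trafficking genes 6 rose, with CX3CR1 and S1PR5 at 1.85 each and ADGRG1 at 1.67, and 5 fell. PDCD1 (1.35) and TOX (1.0), a factor of exhausted and chronically stimulated cells, were among 4 rises of 7 inhibitory receptor and exhaustion genes, and CTLA4 (-1.31) was the fall. Of 14 naive and memory genes 8 fell and 1 rose, with a median log2 fold change of -0.74. IL7R had 643, 1055, 857 and 630 CPM in the GZMK+ GZMB-negative cells, above every effector value, and a log2 fold change of -1.56 ± 0.09 (edgeR adjusted p = 5.19e-17, lower in 4 of 4 dogs). CCR7 (-2.06), ID3 (-1.76), CD28 (-1.25), LEF1 (-0.98) and TCF7 (-0.86) were lower too. CD52 had 20.7, 12.2, 22.4 and 19.7 CPM against 77.6, 182, 133 and 99.8 CPM, which made it the largest fall (-2.82 ± 0.17, edgeR adjusted p = 3.1e-16, 4 of 4 dogs) among genes of at least 20 CPM that moved the same way in every dog. Other genes chosen in this way were PLEK (2.75), CENPF (2.62), DBNDD2 (2.31), H1-5 (2.15), CLNK (1.98) and PI3 (2.86) upwards and RAB25 (-2.54), ANOS1 (-2.15), MGAT5 (-2.11), USP13 (-2.11), KRT18 (-2.10) and FAM114A1 (-1.78) downwards. The proliferation genes MKI67 and RRM2, the rises among 4 tested, were higher by 1.93 and 2.40. CD79A of the B cell list was lower by a log2 fold change of -0.28 (9707 against 11613 CPM on average), and its part in the result was not tested.

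**Figure D3:**
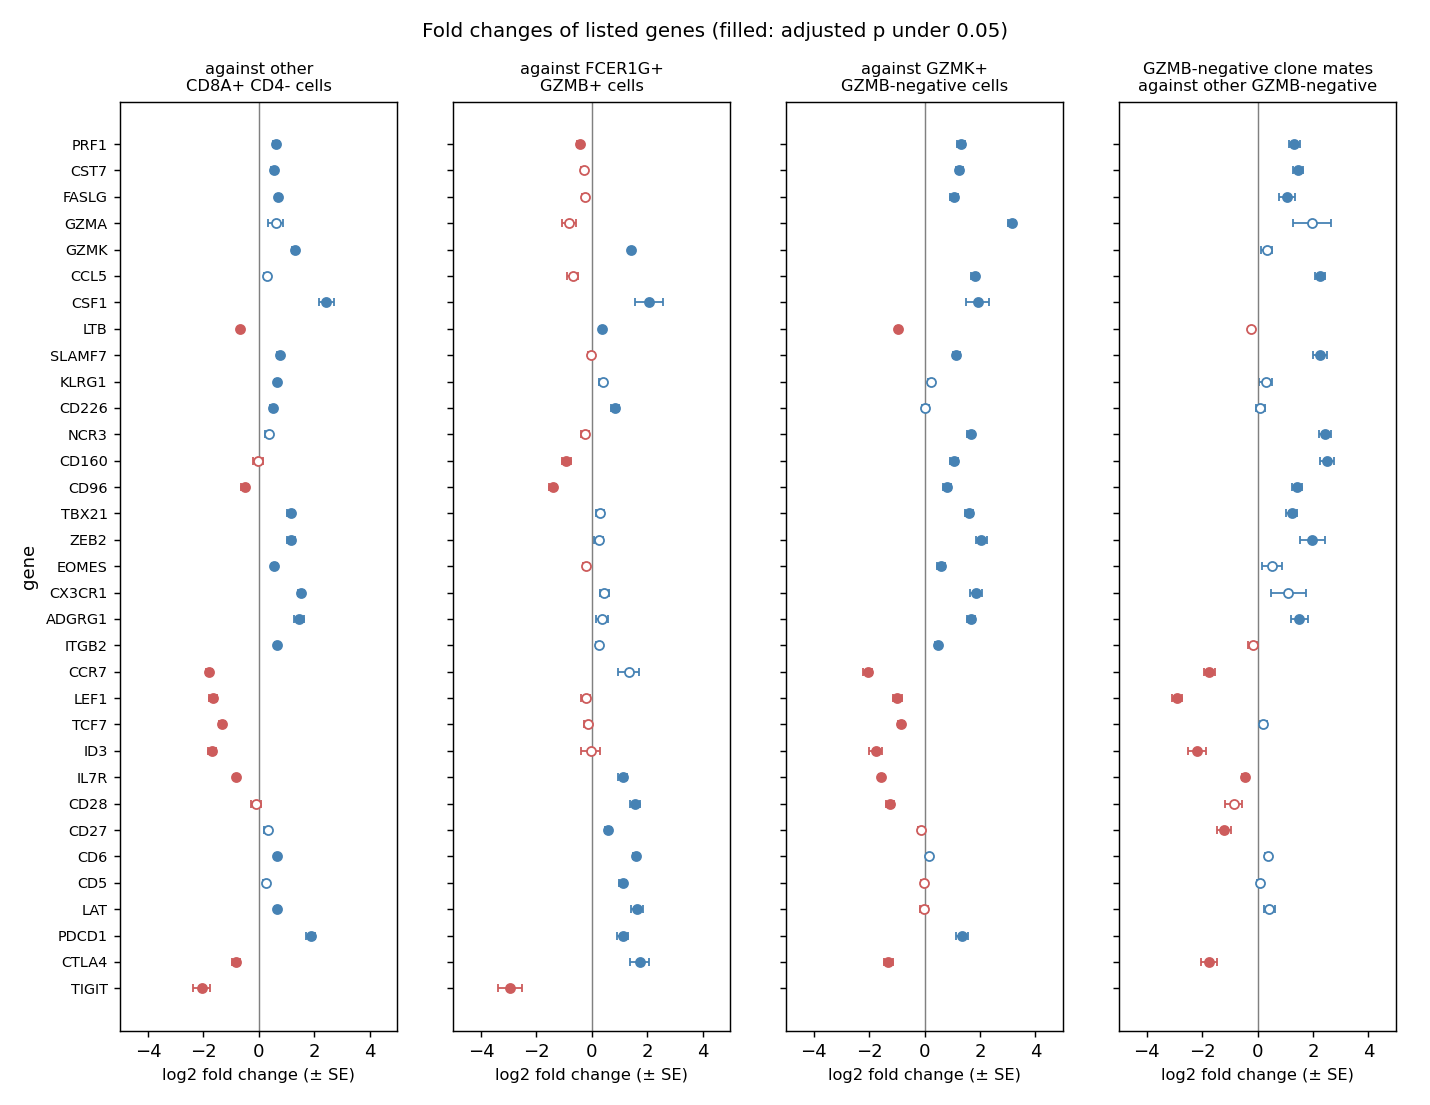
Log2 fold changes (± SE; filled points have an adjusted p under 0.05 in edgeR's quasi-likelihood test) of listed genes in 4 comparisons: effector cells against the other CD8A+ CD4- cells, against FCER1G+ GZMB+ cells and against GZMK+ GZMB-negative cells, and GZMB-negative clone mates of effector cells against other GZMB-negative cells. CD96 lies at -1.41 against FCER1G+ GZMB+ cells, where CD6 lies at 1.59; the first 3 panels share the effector cells.

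The receptor sequences were not used by the rule, except for the TRAV9-11 and TRAJ28 pair. Effector cells with both chains numbered 119, 334, 724 and 581 and fell into 71, 134, 175 and 241 clones. The share of these cells in expanded clones, those with at least 2 cells in the dog, was 64.7%, 75.4%, 88.1% and 76.1%, against 49.7%, 44.6%, 55.8% and 74.4% of the other CD8A+ CD4- cells. It was higher in effector cells of 4 of 4 dogs, and the groups lay closest in dog 4. The means were 76.1% ± 9.57 (SD) and 56.1% ± 13.04, a difference of 19.95 points (two-sided exact permutation test, p = 0.13, the smallest that 4 dogs can give). The chance that a pair of cells drawn from a dog shared a clone was 3.76%, 4.69%, 6.51% and 1.21% in effector cells against 1.37%, 0.534%, 1.87% and 2.56%, which was higher in 3 of 4 dogs and lower in dog 4 (difference 2.46 points, exact permutation p = 0.25). When the FCER1G+ cells and those with the TRAV9-11 and TRAJ28 row were left out of the others, both measures were higher in effector cells of 4 of 4 dogs, dog 4 included. The expanded share of the others was then 43.1%, a difference of 33.0 points, and their chance of sharing a clone 0.594%, a difference of 3.45 points (exact permutation p = 0.13 for each). The largest clones shown above held 16.0%, 14.4%, 16.3% and 5.16% of the paired effector cells of dogs 1 to 4.

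Effector clones extended beyond the rule. The 272 expanded clones with an effector cell held 2076 cells, of which 1409 were effector cells, 66.0% ± 6.5 (SD over dogs). A further 369 were CD8A+ CD4- without GZMB, 32 carried GZMB and FCER1G, 44 were CD4+ CD8A-, 33 had both co-receptors, 185 had neither and 4 were CD8A+ CD4- with GZMB and the TRAV9-11 and TRAJ28 row. The cells with neither numbered 0, 11, 130 and 44 in dogs 1 to 4, and 113 of the 130 in dog 3 lay in 3 clones with only 4 effector cells between them, while 39 of the 44 in dog 4 lay in 2 clones with 2 effector cells. The largest such clone in dog 3 (TRAV29, TRBV7) had 84 cells, 49 of them without a UMI of CD8A and CD4 and 2 of them effector cells.

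**Figure D4:**
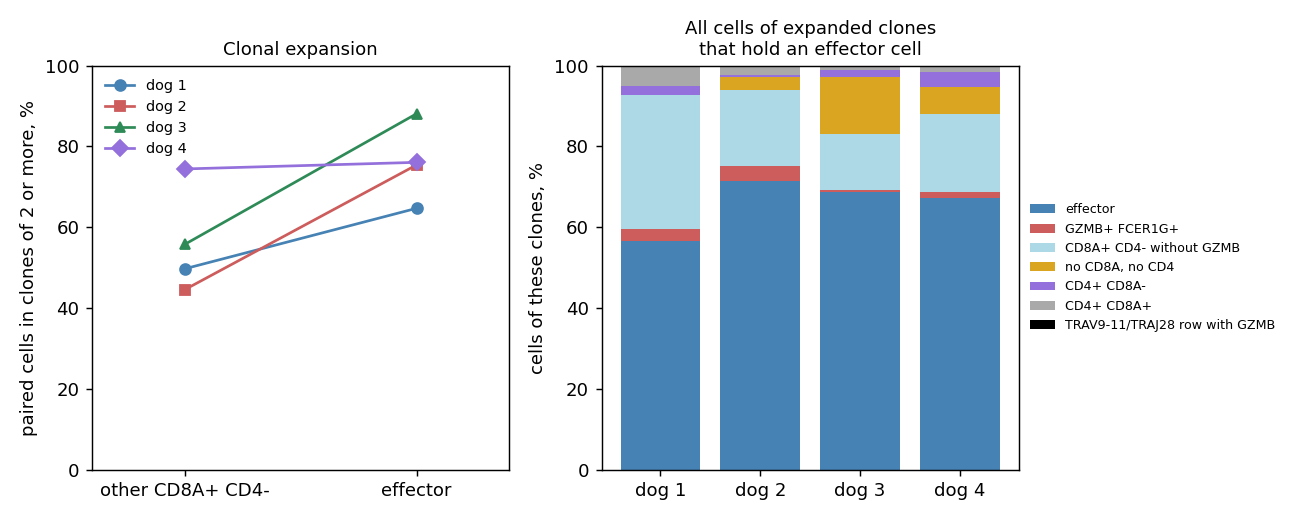
Left, percentage of cells with both receptor chains that lie in clones of at least 2 cells, for the other CD8A+ CD4- cells and for effector cells (1 line per dog); right, the makeup of all cells of expanded clones that hold an effector cell, in percent per dog. Every line rises from left to right, least in dog 4 (74.4% to 76.1%), and cells with neither CD8A nor CD4 are mostly in dog 3.

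Expanded effector cells (77, 252, 638 and 442 cells) were compared with effector cells whose clone had 1 cell (42, 82, 86 and 139). Expanded cells had more ZNF683 (Hobit, a factor of long-lived cytotoxic cells) and CD160 and fewer transcripts of CCR7, CD28 and RRM2. Of 6181 genes tested, 26 (0.421%) were higher and 36 (0.582%) lower. These calls were few and depended on the setting, with 28 without dog 2, 34 without dog 3, 3 with thinned cells, 11 with DESeq2 and 8 without the 3 largest clones of each dog, the last an alternative chosen after the data were seen.

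ZNF683 had 109, 84.1, 74.2 and 72.6 CPM in expanded cells against 42.3, 37.2, 35.7 and 18.3 CPM in singletons, without overlap, and was higher by 1.38 ± 0.20 (edgeR adjusted p = 0.00105, 4 of 4 dogs). CD160, a receptor for HVEM, had 152, 150, 167 and 134 CPM against 89.8, 67.4, 73.8 and 88.2 CPM, without overlap, and was higher by 0.92 ± 0.14 (edgeR adjusted p = 0.00227, 4 of 4 dogs). PRF1 (0.87), CCL5 (0.75), NCR3 (0.92), SLAMF7 (0.74), KLRD1 (0.57) and TRAT1 (0.89), an adaptor of the T cell receptor complex, passed the test as well, and 4 of 13 NK-type receptors rose with none lower and a median of 0.56. IL12RB2 (1.20) and IL2RB (0.41) were the 2 rises among 10 cytokine receptors. Of the other proposed markers ITGAM rose by 1.01 (edgeR adjusted p = 0.0276, higher in 3 of 4 dogs), with the reverse in dog 1. CD28 had 11.5, 62.2, 30.5 and 35.7 CPM against 68.7, 99.9, 85.7 and 76.5 CPM, without overlap, and fell by 1.16 ± 0.19 on the log2 scale (edgeR adjusted p = 0.00411, 4 of 4 dogs). CCR7 fell by 2.14 and CTLA4 by 1.85. RRM2 (-2.01), a subunit of ribonucleotide reductase, TK1 (-1.41), PCNA (-1.37) and SPC24 (-1.67) were lower in expanded cells, as were GCNA (-2.61), KRT18 (-1.70) and ITGB1 (-0.64). AIFM3 (0.98), GPRC5C (1.0), VAC14 (1.04) and DBNDD2 (0.90) were higher. Of the 12 genes of the T cell receptor list, which does not hold TRAT1, and of 10 activation and MHC class II genes none passed.

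A further comparison was made among CD8A+ CD4- cells with neither GZMB nor FCER1G. Those that shared a clone with an effector cell (40, 64, 130 and 123 in dogs 1 to 4) were set against those that did not (144, 254, 361 and 177). The clone mates had higher levels of CCL4, CCL5, CD160, NCR3 and SLAMF7 and lower levels of CTLA4. No cell of either group held a GZMB UMI, which the choice of cells fixed. A cell can lack a UMI of a gene it expresses, so the mates may include effector cells that the limit of 1 UMI missed. Of 6569 genes tested, 125 (1.90%) were higher and 178 (2.71%) lower in clone mates. With library sizes alone in place of TMM scaling the split was 176 higher and 119 lower. Without dog 1, 149 genes passed, and without dog 2, 117.

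CCL4 had 599, 536, 443 and 518 CPM in clone mates against 133, 77.2, 76.4 and 298 CPM, with every clone mate value above the highest of the others. It was higher by 1.91 ± 0.22 (edgeR adjusted p = 2.9e-05, 4 of 4 dogs). KLRD1 had 33.0, 160, 639 and 306 CPM against 25.3, 75.5, 187 and 173 CPM, lowest in dog 1 in both groups, and was higher by 1.16 ± 0.17 (edgeR adjusted p = 0.000484, 4 of 4 dogs). ITGAM had 9.44, 6.42, 64.7 and 33.0 CPM against 3.37, 5.04, 3.61 and 16.6 CPM and was higher by 2.11 ± 0.50 (edgeR adjusted p = 0.02, 4 of 4 dogs). The ITGAM values of clone mates in dogs 1 and 2 rest on fewer than 3 UMIs each, so their direction is uncertain. KLRB1 was higher by 1.12 ± 0.21 (edgeR adjusted p = 0.00395) in 3 of 4 dogs, with 9.44 against 11.8 CPM in dog 1. The effector clones that define these mates were found through GZMB, so the clone mates share their clones, though not their cells, with the members.

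Clone mates lie in clones of at least 2 cells by definition, which held for only 10, 50, 108 and 60 of the others in dogs 1 to 4. Set against these expanded others alone, with dog 1 dropped because its 10 cells were under the limit of 20, 69 genes passed, where dropping dog 1 by itself gave 149. CCL4 was higher there by 2.55 (edgeR adjusted p = 3.68e-05), while KLRD1 (0.76), ITGAM (1.30) and KLRB1 (0.98) did not pass (edgeR adjusted p = 0.0779, 0.418 and 0.117). Of the 26 calls on named genes that could be tested against expanded others, 11 held, 14 no longer passed and 1 changed sign. Those that held were CCL4, CCL5, CD160, NCR3, SLAMF7, KLRK1, CST7, IL7R, CTLA4, S100A8 and ADIRF. LEF1 had a log2 fold change of -0.23 there (edgeR adjusted p = 0.905) and TBX21 of 0.26 (edgeR adjusted p = 0.8). RGS10, TSPAN5, TLE4, GNMT and SYTL2, named below, could not be tested against expanded others. Without dog 1 alone, 27 of 31 such calls held. ITGAM (2.20), FASLG (1.08) and ZEB2 (2.05) kept log2 fold changes of about the same size but no longer passed (edgeR adjusted p = 0.0546, 0.0859 and 0.058), and IFNG went from 1.28 to 0.92 (edgeR adjusted p = 0.279).

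CD160 had 231, 404, 118 and 181 CPM in clone mates against 60.6, 26.0, 17.4 and 54.5 CPM, without overlap, and was higher by 2.50 ± 0.25 (edgeR adjusted p = 7.48e-06, 4 of 4 dogs). Of 13 NK-type receptors 8 rose and none fell, with a median of 1.16, among them NCR3 (2.44), SLAMF7 (2.25) and KLRK1 (NKG2D, 1.35). CCL5 rose by 2.25 and IFNG, the cytokine interferon gamma, by 1.28. PRF1, CST7 and FASLG rose by 1.33, 1.47 and 1.06, 3 of 14 granule and death ligand genes, while GZMA did not pass, with 4.72, 0, 25.5 and 42.1 CPM against 5.05, 9.23, 0.601 and 5.93 CPM (edgeR adjusted p = 0.132, log2 fold change 1.95, higher in 2 of 4 dogs). ZEB2 rose by 1.98 and TBX21 by 1.23. LEF1 had 42.5, 38.5, 61.3 and 32.9 CPM in clone mates against 510, 381, 308 and 203 CPM, and its log2 fold change was -2.92 ± 0.18 (edgeR adjusted p = 2.25e-08, lower in 4 of 4 dogs). RGS10, a regulator of G protein signalling, had 9.44, 16.0, 1.70 and 7.32 CPM against 347, 243, 191 and 87.7 CPM, with a log2 fold change of -4.75 ± 0.28 (edgeR adjusted p = 1.65e-08, lower in 4 of 4 dogs). Of 14 naive and memory genes 8 fell and none rose, with a median of -0.92, among them ID3 (-2.19), CD27 (-1.21) and IL7R (-0.45). Of those named here, LEF1, ID3 and CD27 no longer passed against the expanded others in dogs 2 to 4, and IL7R did. CCR7 was lower in clone mates (-1.74, and -1.57 without dog 1), but had a log2 fold change of 0.89 in dogs 2 to 4 against the expanded others (edgeR adjusted p = 0.352). CTLA4 (-1.76) and S100A8 (-1.03) were lower too, as was CD79A (-0.48, 8534 against 10812 CPM on average), and the part of these 2 other-cell genes, S100A8 and CD79A, in the result was not tested. The largest named changes outside the lists were SYTL2 (2.26), an effector of granule transport, PLCG2 (2.20), SPNS3 (2.22) and TNFRSF6B (2.16) upwards and ADIRF (-4.47), TSPAN5 (-3.93), TLE4 (-3.31) and GNMT (-3.30) downwards. RFLNB was at 0 in the clone mates of every dog and CCDC3 and ADAM19 were at 0 in 2 and 3 of them, with means of 42.4, 37.2 and 26.6 CPM in the others, and no fold is given for these.

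Effector clones differed among themselves. The 30 clones with at least 10 effector cells (2, 4, 11 and 13 in dogs 1 to 4) held 820 effector cells, and the UMIs of each clone were summed. Cells of 1 clone share their source, so these levels are a description without a test. CCL4 was present in every clone, with a lowest level of 757 CPM, a median of 1671 CPM and a highest of 4864 CPM, and KLRD1 ranged from 205 over 932 to 1272 CPM. CCL5 split the clones most widely, with 5 clones at 0, 12 under 100 CPM and 15 over 1000 CPM, up to 16067 CPM in a clone of 12 cells in dog 2. The clones with little CCL5 numbered 0, 1, 6 and 5 in dogs 1 to 4. The largest clone of dog 3, with 118 cells, had 31.7 CPM of CCL5 and 956 CPM of CCL4, and the largest of dog 4, with 30 cells, had 11452 CPM of CCL5 and 2571 CPM of CCL4. The largest clone of dog 2 had 14.4 CPM of CCL5, from 3 UMIs, and 2339 CPM of CCL4.

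KLRB1 had a median of 778 CPM and was at 0 in 3 clones, 1 of dog 1 and 2 of dog 2. A clone of 47 cells in dog 2 had no KLRB1 UMI in 200980 UMIs, which allows up to 14.9 CPM (3 counts, counting error only), and 3463 CPM of CCL5 and 3160 CPM of GZMK. All 3 clones without KLRB1 had more than 1000 CPM of CCL5, as had 15 of all 30. GZMK was at 0 in 1 clone, of 10 cells in dog 4, and otherwise reached 3160 CPM around a median of 973 CPM. GZMA was at 0 in 5 clones and reached 2080 CPM, ITGAM ranged from 11.7 over 254 to 978 CPM and S100A8 from 104 over 2448 to 5143 CPM. PDCD1 was at 0 in 6 clones and at most 229 CPM. For the smallest of these sums 3 UMIs amount to 110 CPM, so low levels in small clones cannot be told from 0.

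**Figure D5:**
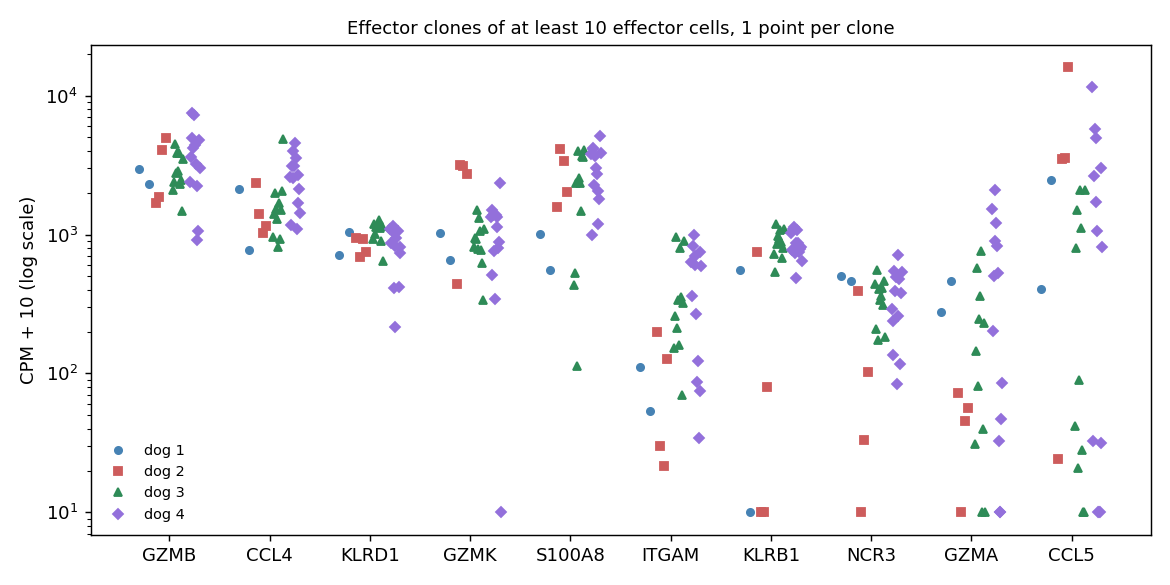
Expression (CPM + 10, log axis) of 10 genes in the 30 effector clones with at least 10 effector cells, 1 point per clone and 1 symbol per dog. CCL4 and KLRD1 are above 200 CPM in every clone, while CCL5 reaches from 0 to 16067 CPM. The 3 clones without KLRB1 belong to dogs 1 and 2. GZMB chose the cells, so its presence in every clone is given by the rule.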

How the data were processed

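The authors aligned the 5' gene expression reads to CanFam 3.1 with Cell Ranger 5.0.1 and deposited UMI counts, raw and without normalization, for each gene in each called cell; the V(D)J tables, also deposited by the authors, list productive rearrangements with V and J calls, junctions and UMI counts. The gene list of dog 1 (27980 lines for 20257 matrix rows) was not used, and the list of dogs 2 to 4 named its rows (log row totals of dogs 1 and 2 correlated at 0.991 across genes). A cell was kept if it had 500 to 20000 UMIs and if 13 mitochondrial genes took no more than 10% of them. UMIs were summed per dog and cell group of at least 20 cells and tested with edgeR 4.0.16 in R 4.3.3 (filterByExpr, TMM, quasi-likelihood test, dog as a block because both groups came from the same dogs), after the scripts had been tested on simulated data. GZMB, FCER1G, CD8A and CD4 were not tested. CPM are shares of all UMIs of a sum. Clones were pairs of the TRA and TRB junctions with most UMIs. Named genes were those of the gene lists and the 10 largest rises and falls among genes that passed, moved the same way in every dog and had a mean of 20 CPM in a group; genes with an identifier only were not named, and 1 listed gene, which the counts over its lists include, is not reported here. The members and the lists were chosen with earlier results of these data known. Alternatives were DESeq2 1.42.0, no TMM, no filter, no block, thinning, other limits on cells and leaving out each dog. With the dog as a block, the edgeR p-values measure the spread of the group difference over 4 dogs. They do not measure the spread of levels between dogs.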

Additional observations from a re-analysis of the deposited data

Results flagged for a closer look

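Levels in effector cells were looked at in 120 groups of 4 dogs for a dog that stood far from the other 3, and 10 were found, where chance gives about 1 in 20 groups. Dog 2 was high for CD5 (405 CPM, the others 243 to 269), CST7 (156 CPM, 128 to 133), the linker histone gene H1-5 (110 CPM, 12.9 to 27.4) and thymidine kinase TK1 (65.8 CPM, 30.5 to 36.2). Dog 1 was low for PLEK (12.9 CPM, 37.3 to 39.0) and PRDM1 (63.4 CPM, 107 to 115) and high for TNS3 (5.18 CPM, 0 to 0.488). Dog 3 was high for LEF1 (64.4 CPM, 48.3 to 50.5) and low for SERPINB9 (32.2 CPM, 37.1 to 37.6), and dog 4 was high for RAB27A (217 CPM, 195 to 199).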

How the results depend on the processing

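In the order of the report (834, 205, 562, 62 and 303 genes) DESeq2 gave 378, 126, 267, 11 and 108, and without the replicate block, which pairs the groups by dog, 119, 47, 73, 0 and 78 passed, the 0 with 309 genes at an unadjusted p under 0.05 in edgeR. DESeq2 split the 11 genes of expanded against singleton cells into 6 higher and 5 lower, where edgeR had 26 and 36. Without the filter on low counts 388 passed against FCER1G+ GZMB+ cells, 151 for expanded cells and 536 for clone mates. Thinning to 2000 UMIs gave 287 against GZMK+ GZMB-negative cells, 3 for expanded cells and 119 for clone mates. Against the other cells without FCER1G and without the TRAV9-11 and TRAJ28 row, 1434 passed, for clone mates against others in expanded clones, which also dropped dog 1 (10 such cells), 69, and without the 3 largest clones, chosen after the data were seen, 8 for expanded cells. Leaving out each dog gave 432 to 634, 92 to 206, 323 to 598, 28 to 86 and 117 to 260 genes, expanded shares that differed by 15.8 to 26.1 points, sharing that differed by 1.73 to 3.73 points, median UMIs that differed by -393 to -115 and effector shares of 34.9 to 42.8%. Genes that changed sign were CTSW (0.38), IKZF2 (0.57), PI3 (3.43), CRTAM (0.021) and CD96 (0.47) against the others without FCER1G and the TRAV9-11 and TRAJ28 row, and for clone mates CCR7 (0.89) against others in expanded clones in dogs 2 to 4, and of these IKZF2, CRTAM and CCR7 did not pass there. Of 186 calls on named genes, 96 were lost without the block and 115 held under every other alternative run. The causes were not tested. Cells of low depth can lack a UMI of a gene they express, so the limit of 1 UMI misses some cells.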

Other observations

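Receptor segments were compared per clone between effector cells and the CD8A+ CD4- cells without GZMB and FCER1G. Of 103 V and J segments, 16 differed the same way in 4 of 4 dogs, each with the smallest p that an exact permutation test over 4 dogs can give (0.13, Benjamini-Hochberg adjusted 0.99), so none passed. A p of this size alone gives 12.9 of 103. TRBJ1-6, chosen after its values were seen, was used by 4.23%, 4.48%, 6.86% and 5.39% of effector clones against 7.55%, 10.9%, 10.3% and 9.63% of the other clones, and the groups did not overlap. Counted per cell, it was lower in effector cells of 2 dogs and higher in the other two, with 19.3% of the effector cells of dog 3.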
